A study of Mus musculus with 4 samples.

Results

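The T cell receptor complex and its proximal signalling machinery were followed through 9 genes: Cd3d, Cd3e, Cd3g and Cd247 for the signalling chains of the receptor, Cd4 for the coreceptor, and Lck, Zap70, Lat and Lcp2 for the first kinases and adaptors. They were taken by name, as all probe sets (groups of probes for 1 transcript) whose platform annotation gives 1 of these symbols alone. This found 15 probe sets for 8 of the 9 genes, out of 18193 genes in all. No probe set was annotated to Lck alone, so Lck was not analysed here.

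RNA of mouse CD4+ T cells was measured on Affymetrix mouse genome arrays, 1 array for each of 4 groups. The groups were C57BL/6J wild type cells in Th1 culture, C57BL6-STAT4<tm1> (STAT4KO) cells in Th1 culture, C57BL/6J wild type cells in Th2 culture, and B6.129S2©-STAT6<tm1Gru>/J (STAT6KO) cells in Th2 culture. In every group naive CD4+CD44-CD62L+ cells were sorted, activated for 3 days through CD3 and CD28, kept for 4 days in IL-2, and restimulated for 2 h through CD3 and CD28 on day 7. Th1 cultures received IL-12, with anti-IL-4 during activation, and Th2 cultures received IL-4, with anti-IFN-g during activation. All 4 groups therefore had been stimulated through the receptor described here, and none was left without it, while the sort itself used surface CD4. How many mice stood behind an array, and whether the wild type cells of the Th1 and Th2 cultures were processed together, is not given in the sources used here.

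The antigen receptor of a T cell has no enzyme of its own. Its signalling is carried by the CD3 gamma, delta and epsilon chains and by the zeta chain (Cd247), whose tails hold paired tyrosines that the kinase LCK, brought in by the coreceptor CD4, phosphorylates. ZAP-70 docks on these tyrosines and phosphorylates the adaptors LAT and SLP-76 (Lcp2), on which the complex that opens the calcium and Ras branches is assembled. Because assembled receptors need every chain, a shortage of the zeta chain is known to limit how many reach the surface.

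The values are log2 expression values made by RMA, so a difference of 1 is a 2-fold difference. Since every group had a single array, nothing could be tested, and each difference describes 1 pair of arrays. A gene was called when its main probe set, the one with the highest mean, differed by at least 1 and the brighter array reached 5.82, the median of all probe sets and the level minimum used here. The array medians ran from 5.63 to 6.01. The 75th percentile was 7.53 on the wild type Th1 array and 8.10 on the wild type Th2 array. The deposited arrays thus did not share 1 distribution, and differences as deposited include such shifts between arrays. The 3′ minus 5′ signal of the beta-actin control, a sign of RNA quality, was 2.08 log2 units on the STAT6-deficient array, against 0.32 to 0.85 on the other 3. Stat4, the gene targeted in the first knockout, read 11.45 in wild type Th1, 9.20 in STAT4KO Th1, 8.96 in wild type Th2 and 9.90 in STAT6KO Th2 cells, and Stat6 read 11.17, 11.67, 10.93 and 10.92. Stat6 signal thus did not separate the Th2 arrays, and since it is not known whether these probes lie in the deleted part, this checks nothing about that genotype. In bulk RNA, fewer cells of a type and less RNA per cell cannot be told apart.

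Of the labels, the T cell identity of the cells was checked with markers. All 8 measured genes stood above the level minimum on every array by their main probe sets. Of all 18193 genes, 9466 also reached this level on every array, so reaching it does not by itself mark T cells. B cell markers reached it for 1 or 2 of 4 on an array, with a summed level (log2 of the summed linear signals) from 7.40 to 7.69. Myeloid and dendritic markers reached it for 2 to 5 of 8, and their summed level was 9.71 in Th2 wild type cells against 8.61 without STAT6, 9.11 in Th1 wild type and 8.84 without STAT4. Of the NK and gamma delta T cell markers 2 were measured: Ncr1 was below it on all arrays, and Sox13 read 5.77 to 6.73. The T lineage markers Cd2, Cd5, Cd6, Cd27, Cd28 and Thy1 all stood above it on every array, while Ptcra, the pre-T cell receptor chain of thymocytes, was below it on all 4 at 4.75 to 5.41.

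In the values as deposited, the kinase and adaptors of the pathway differed less than the receptor chain genes Cd3e, Cd3g and Cd247 and the coreceptor gene across the 4 arrays. The main probe set of Zap70 ranged over 0.18 log2 units and that of Lat over 0.26. Among the 9466 genes at the level minimum on every array, 0.76% had a smaller range than Zap70 and 2.13% a smaller range than Lat. Cd3d ranged over 0.51 and Lcp2 over 0.86, then Cd3g over 1.12, Cd3e over 1.14, Cd247 over 1.58 and Cd4 over 1.97. So 4 of the 8 stayed within a 2-fold range, beside 46.0% of the 9466 genes, whose median range was 1.06. Cd4 ranged more widely than 87.3% of those genes. These ranges and shares were not recomputed under other scalings of the arrays. The STAT4-deficient minus wild type Th1 difference of Zap70 was 0.18 as deposited. It was −0.06 after median centring, 0.50 after quantile normalization, 0.45 after loess and 0.56 with arrays centred on their hybridization controls.

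**Figure D1:**
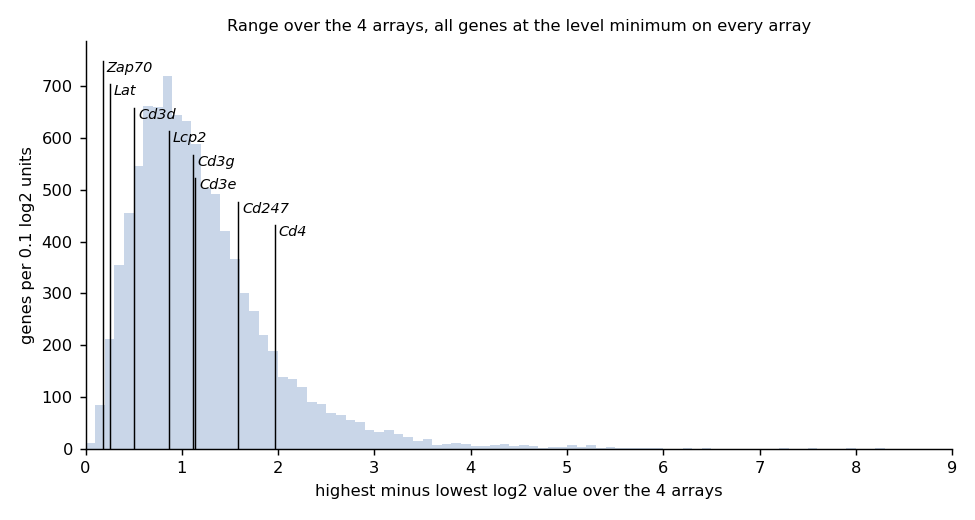
The histogram counts the 9466 genes at the level minimum on every array by their range over the 4 arrays (highest minus lowest log2 value of the main probe set, x axis, in log2 units), and each vertical line marks 1 of the 8 measured genes at its own range. In these values as deposited, Zap70 at 0.18 and Lat at 0.26 lie at the left edge, and Cd4 at 1.97 lies farthest right of the 8.

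Among the receptor chains, Cd3d was the steadier gene and Cd3e separated the culture conditions. Cd3d read 13.73 in wild type Th1, 13.30 in STAT4KO Th1, 13.48 in wild type Th2 and 13.22 in STAT6KO Th2 cells. Cd3e, whose product pairs with both the delta and the gamma chain, read 12.11, 12.05, 10.97 and 11.19 in the same order. Both Th1 arrays lay above both Th2 arrays for Cd3e, by at least 0.86 log2 units, whereas the Cd3d values of the Th1 and Th2 arrays as deposited overlapped. Cd3g read 12.17, 11.62, 12.23 and 12.74 in that order. It was highest without STAT6 and lowest without STAT4, and its Th1 arrays lay below its Th2 arrays by as little as 0.06 as deposited.

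These 3 genes lie side by side on chromosome 9 in the order Cd3g, Cd3d, Cd3e, with no other gene between them in the RefSeq table, and Cd247 lies on chromosome 1. The bases upstream of each start are shown because neighbours with different patterns can be read against their own promoters, and that of Cd247 is added because it had the largest difference under STAT6 loss of the 8 genes. They are RefSeq sequences of GRCm38.p6, 5′ to 3′ on the strand of the gene, up to 250 bases and ending where the outermost annotated transcript starts. The Cd247 window ends at the start of a shorter transcript and lies within the span of a longer one. Capitals mark matches to AGGAAGT, a form of the ETS family site (on either strand), and to the STAT site TTCNNNGAA, which reads the same on both strands.
Cd3d (chr9:44981536-44981768, plus strand): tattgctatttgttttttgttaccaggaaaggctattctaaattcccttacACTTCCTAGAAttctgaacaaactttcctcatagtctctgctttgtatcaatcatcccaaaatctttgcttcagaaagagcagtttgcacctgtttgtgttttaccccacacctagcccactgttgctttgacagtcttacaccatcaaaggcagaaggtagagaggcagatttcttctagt
Cd3g (chr9:44980432-44980681, minus strand): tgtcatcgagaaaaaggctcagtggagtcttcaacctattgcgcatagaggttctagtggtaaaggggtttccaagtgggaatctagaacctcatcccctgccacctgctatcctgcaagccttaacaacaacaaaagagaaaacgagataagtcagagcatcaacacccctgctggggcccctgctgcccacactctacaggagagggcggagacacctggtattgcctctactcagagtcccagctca
Cd3e (chr9:45009664-45009861, minus strand): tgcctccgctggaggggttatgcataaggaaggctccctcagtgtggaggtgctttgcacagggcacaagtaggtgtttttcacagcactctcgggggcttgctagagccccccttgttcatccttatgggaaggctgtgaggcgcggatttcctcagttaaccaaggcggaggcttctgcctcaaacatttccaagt
Cd247 (chr1:165788431-165788680, plus strand): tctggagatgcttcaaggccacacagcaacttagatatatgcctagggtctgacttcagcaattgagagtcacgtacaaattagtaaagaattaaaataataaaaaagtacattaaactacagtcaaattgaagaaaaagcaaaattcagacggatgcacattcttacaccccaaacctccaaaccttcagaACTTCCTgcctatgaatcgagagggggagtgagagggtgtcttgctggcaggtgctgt

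In the 250 bases before an annotated transcript start of each gene, AGGAAGT was found once in Cd3d, Cd247 and Cd3e. The Cd3e match begins 18 bases before the start of a shorter transcript, in the stretch left out of the printed sequence. That stretch lies downstream of the outermost annotated start, and the printed Cd3e sequence held 0 matches. The windows of Cd3g, Zap70, Lat and Lcp2 had none. Of 32851 such windows in the RefSeq promoter table, 7.69% held it, and it was picked after these promoters had been read. TTCNNNGAA was found once in Cd3d, overlapping the ETS-type match, and in none of the windows of Cd3e, Cd3g, Cd247, Zap70, Lat or Lcp2, against 7.02% of all windows. The form with a spacer of 4 bases, TTCNNNNGAA, which STAT6 is known to bind, was found in none of these windows and in 5.85% of all. The table holds no window for Cd4. A match is a description of the letters only, and binding was not measured on these arrays.

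Cd247, which encodes the zeta chain, was the only one of the 8 called in the comparison of STAT6-deficient with wild type Th2 cells. Its main probe set, 1426396_at, read 11.50 in wild type Th1, 11.36 in STAT4KO Th1, 11.66 in wild type Th2 and 10.08 in STAT6KO Th2 cells. Probe set 1452539_a_at read 10.96, 10.40, 10.42 and 7.62 in the same order. On both, the STAT6-deficient array was low, and the other 3 lay closer to each other than to it. The difference under STAT6 loss was −1.58 (3.00-fold lower) on the main probe set and −2.80 (6.94-fold lower) on the other.

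The remaining Cd247 probe sets showed smaller differences under STAT6 loss or lay near the level minimum. Probe set 1420716_at read 7.96, 7.99, 7.87 and 7.09, which is −0.78 under STAT6 loss and short of 2-fold. Probe set 1426079_at read 5.31, 5.92, 4.84 and 5.03, below the level minimum on every array but the STAT4-deficient one, and gave 0.19. So 3 of 4 Cd247 probe sets were lower without STAT6, by unequal amounts, and on that array the 3′ excess of the actin control was 1.23 log2 units above the wild type Th2 value; the part of RNA quality in this result was not tested. Which transcripts of Cd247 each probe set reports is not given in the sources used here.

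**Figure D2:**
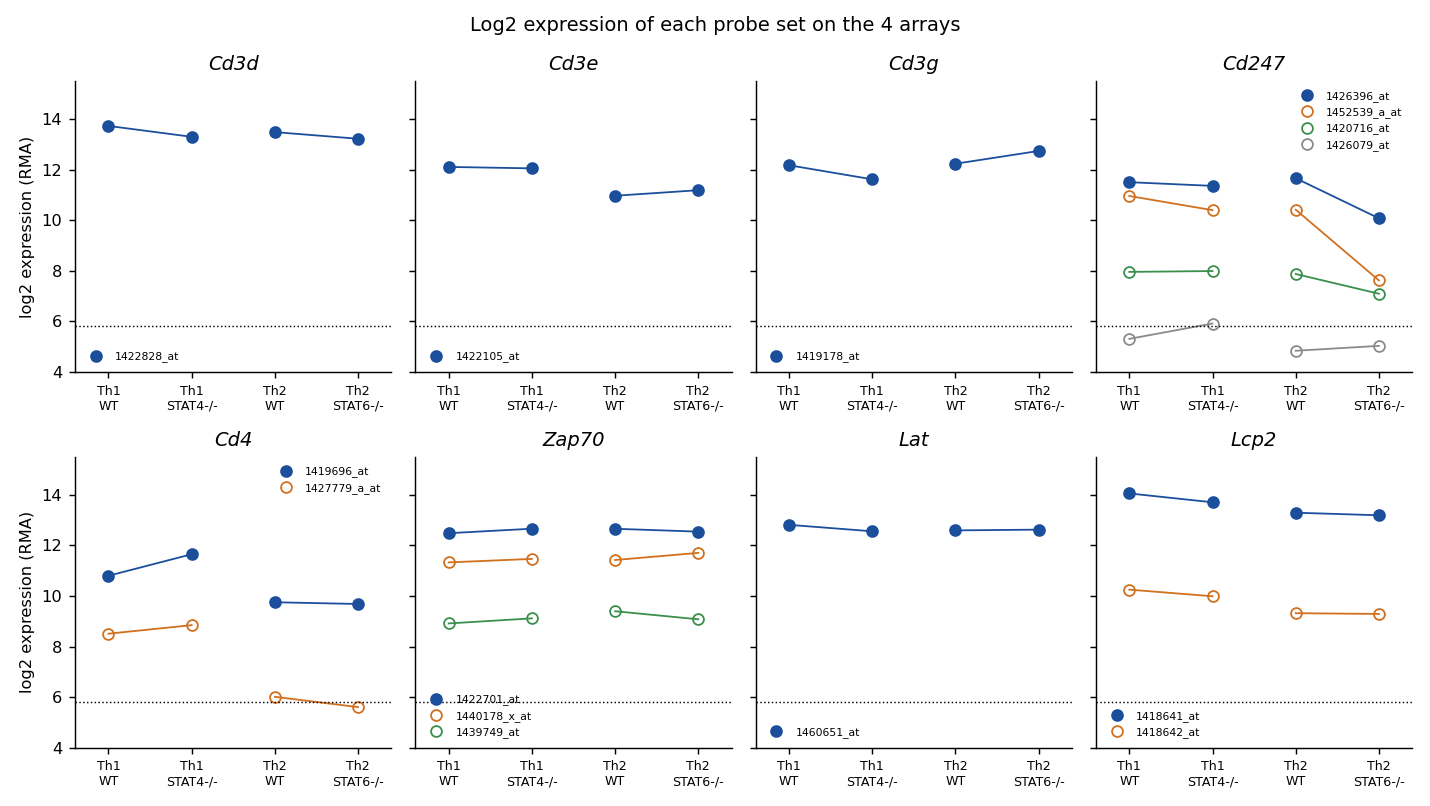
Each panel shows 1 gene, with log2 expression (y axis) on the 4 arrays (x axis), filled circles for the main probe set, open circles for other probe sets, lines joining the 2 arrays of a culture condition, and a dotted line at the level minimum of 5.82. The Cd247 probe sets 1426396_at and 1452539_a_at drop to 10.08 and 7.62 on the STAT6-deficient array, both Cd4 probe sets stand higher on the Th1 arrays, and the 3 Zap70 probe sets are nearly level.

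The coreceptor gene Cd4 was higher in Th1 than in Th2 cells on both of its probe sets. The main probe set, 1419696_at, read 10.79 in wild type Th1, 11.65 in STAT4KO Th1, 9.75 in wild type Th2 and 9.68 in STAT6KO Th2 cells. Probe set 1427779_a_at read 8.51, 8.84, 6.01 and 5.61, the last below the level minimum. Neither probe set gave overlapping values between the Th1 and the Th2 arrays. The wild types differed by 1.05 (2.06-fold) on the main probe set and by 2.49 (5.63-fold) on the other.

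Cd4 also had the largest difference of the 8 genes under STAT4 loss, upward and short of the limit. It was 0.85 log2 units (1.80-fold) higher in STAT4-deficient than in wild type Th1 cells on the main probe set and 0.34 on the other. Under STAT6 loss its probe sets differed by −0.07 and −0.41.

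Zap70, the kinase recruited to the phosphorylated receptor chains, read 12.48 in wild type Th1, 12.66 in STAT4KO Th1, 12.65 in wild type Th2 and 12.54 in STAT6KO Th2 cells. Its other probe sets read 11.32, 11.46, 11.42 and 11.70, and 8.91, 9.11, 9.39 and 9.08. The widest range of any of the 3 was 0.48 log2 units as deposited. Lat, the membrane adaptor that ZAP-70 phosphorylates, read 12.81, 12.55, 12.59 and 12.62, with the Th1 wild type array highest by a small margin.

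Lcp2, which encodes the cytosolic adaptor SLP-76, followed the culture condition on both probe sets. The brighter one read 14.05 in wild type Th1, 13.70 in STAT4KO Th1, 13.29 in wild type Th2 and 13.19 in STAT6KO Th2 cells. The other read 10.25, 9.99, 9.32 and 9.29. Both Th1 arrays lay above both Th2 arrays on each, and the wild types differed by 0.76 and 0.93, short of 2-fold as deposited. The dimmer probe set passed 2-fold after quantile normalization (1.38) and loess (1.40).

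The comparison of STAT4-deficient with wild type Th1 cells asked what STAT4, which carries the IL-12 signal, contributes to expression under Th1 conditions. None of the 8 genes and none of their 15 probe sets was called, beside 11.5% of the 12608 genes (6.18% higher and 5.34% lower) and 12.4% of the probe sets at the level minimum. The differences ran from −0.56 (Cd3g) to 0.85 (Cd4), and 6 of the 8 were below 0. Their median was −0.20, against 0.13 over all genes at the level minimum. Without the level minimum the all-gene median was 0.17. After quantile normalization the 8 had 0.13 against 0.04, and after loess 0.02 against 0.01. The signs of Cd3e, Cd247, Zap70, Lat and Lcp2 changed with the scaling of the arrays, while Cd3d and Cd3g were lower and Cd4 higher under all 5 scalings tried. Cd4 passed 2-fold under quantile normalization (1.07) and when each array was centred on its hybridization controls (1.24).

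The comparison of STAT6-deficient with wild type Th2 cells asked the same of STAT6, which carries the IL-4 signal. Cd247 was the 1 gene called of 8, beside 26.5% of 11490 genes called in either direction, 7.01% called higher and 19.5% called lower. Of the member probe sets, 2 of the 14 at the level minimum were called, both Cd247, against 28% of all probe sets. Cd247 kept this call under the other 4 scalings, at −1.70 to −1.41. The other 7 lay between −0.26 (Cd3d) and 0.50 (Cd3g). The median of the 8 was −0.09, against −0.30 over all genes at the level minimum. Without the level minimum the all-gene median was −0.19. After quantile normalization the 8 had 0.07 against −0.02, and after loess 0.02 against −0.03. Cd3e and Cd3g were slightly higher and Cd3d slightly lower under all 5 scalings, short of 2-fold.

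The comparison of the wild types asked how Th1 and Th2 cells differ. Cd3e (1.14, 2.20-fold) and Cd4 were called higher in Th1 cells and none of the 8 was called higher in Th2 cells, beside 33.5% of 12111 genes called in either direction, 8.14% called higher and 25.4% called lower in Th1. Among member probe sets 3 of 14 were called, against 33.4% of all. The median of the 8 was 0.23, against −0.37 over all genes at the level minimum. Without the level minimum the all-gene median was −0.10. It was 0.04 after quantile normalization and −0.003 after loess, where the 8 had 0.25 and 0.23. The share of called genes that were higher in Th1 rose from 24.3% to 44.9% after quantile normalization. With arrays centred on the hybridization controls neither gene was called, at 0.76 for Cd3e and 0.67 for Cd4, while the second Cd4 probe set stayed beyond 2-fold at 2.12. This comparison shares its Th1 array with STAT4 loss and its Th2 array with STAT6 loss.

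With the knockout arrays included, Cd3e, Cd4 and Lcp2 had both Th1 arrays above both Th2 arrays, beside 21.7% of 13147 genes, and Cd3g had both below, beside 29.4%. The smallest gap between a Th1 and a Th2 array was 1.05 log2 units for Cd4, 0.86 for Cd3e and 0.41 for Lcp2. The 4 other genes did not separate the culture conditions as deposited. Cd3e, Cd4 and Lcp2 kept this separation under the other 4 scalings. That of Cd3g was lost after quantile normalization and loess, where its wild type difference turned to 0.06 and 0.07. Under both of these Cd3d, Cd247 and Lat had their Th1 arrays above, and after median centring Zap70 had them below. The shares of all genes with such a separation, 21.7% and 29.4%, are for the values as deposited and were not recomputed under other scalings. Whether the members separated more often than other genes under those scalings was therefore not tested.

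**Figure D3:**
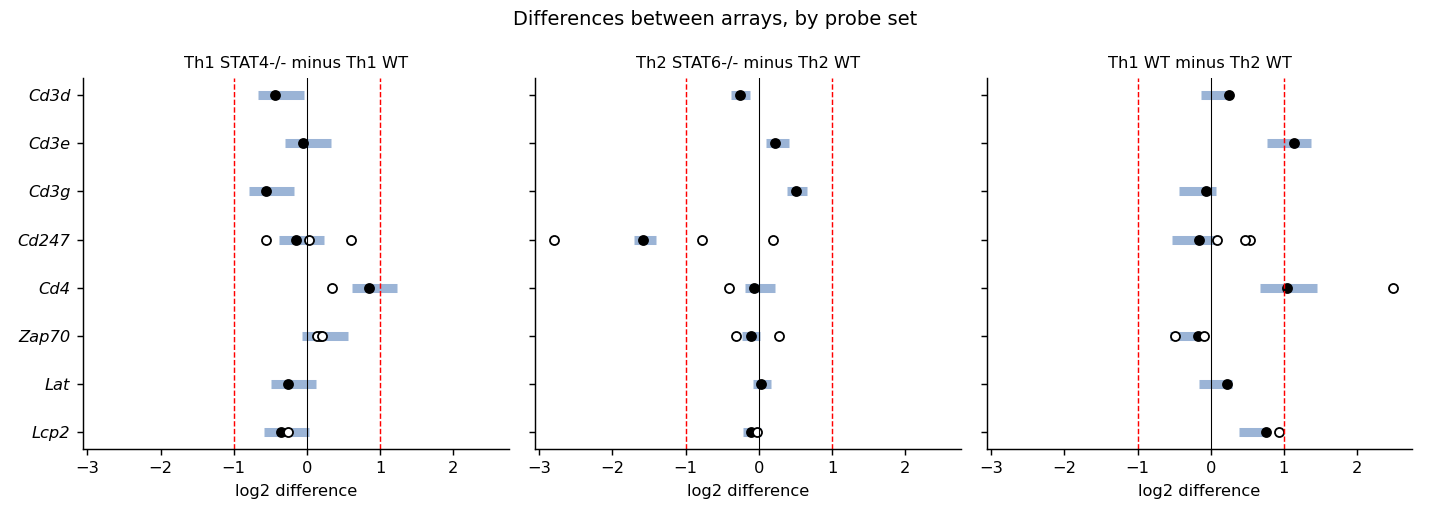
Each panel shows 1 comparison, with the log2 difference (x axis) of each gene (y axis); filled circles are main probe sets, open circles other probe sets, blue bars the span of the main probe set's difference over the 5 scalings, and dashed lines the 2-fold limits. Beyond the limits lie the STAT6-loss points of Cd247 at −1.58 and −2.80, and the wild type points of Cd3e at 1.14 and Cd4 at 1.05 and 2.49.

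The genes whose pattern over the 4 arrays was most like a member's were sought for the 4 members that ranged over at least 1 log2 unit, by the Euclidean distance of values centred on each gene's own mean, among 13146 other genes. For Cd247 they were Eml2 (distance 0.05), Lhx4 (0.08) and Pafah2 (0.10), and 182 genes lay within 0.5. Eml2 read 7.11, 6.96, 7.31 and 5.66. Its STAT6-deficient value was below the level minimum, as were those of Lhx4 (4.55) and Pafah2 (5.12). For Cd3e they were Phf20l1 (0.04), Dppa4 (0.06) and Htra3 (0.08), with 700 genes within 0.5. Dppa4 was below the level minimum on both Th2 arrays (4.84 and 5.12), and Htra3 on the wild type Th2 array (5.69). For Cd3g they were Usp19 (0.06), Ythdc1 (0.06) and Stx6 (0.07), with 460 genes within 0.5. For Cd4 they were Aqp4 (0.08), Ebf2 (0.08) and Marveld3 (0.11), with 139 within 0.5, and all 3 passed the level minimum on the STAT4-deficient array alone. With 4 arrays, a short distance is common.

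Other genes of the proximal pathway were counted by the same call. Of 17 measured kinases and regulators that act around LCK and ZAP-70, 1 was called higher and 4 lower under STAT6 loss, with a median of −0.51, beside 26.5% of all genes called. After quantile normalization and after loess 3 were higher and 2 lower (medians −0.19 and −0.22), beside 21.7% and 22.9% of all genes called. Dok2, an adaptor that dampens receptor signalling, read 9.22 in wild type Th1, 9.43 in STAT4KO Th1, 11.41 in wild type Th2 and 8.29 in STAT6KO Th2 cells. Tec, a non-receptor tyrosine kinase, read 7.81, 7.42, 10.83 and 8.44. Both were highest in Th2 wild type cells, and their differences were −3.12 (Dok2) and −2.39 (Tec) under STAT6 loss and −2.19 and −3.02 between the wild types.

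Among the inhibitors of the pathway, Csk, the kinase that keeps LCK inactive, read 10.12 in wild type Th1, 11.04 in STAT4KO Th1, 11.17 in wild type Th2 and 10.02 in STAT6KO Th2 cells. It was called under STAT6 loss (−1.15) and between the wild types (−1.05), and both calls were lost after quantile normalization (−0.94 and −0.70) and loess. Under STAT4 loss Csk was at 0.93, short of the limit, and at 0.69 after median centring. It was called higher there after quantile normalization (1.11), loess (1.05) and with the hybridization controls (1.31). Ubash3b, a phosphatase that acts on ZAP-70 and SYK, was the 1 gene called higher without STAT6 as deposited (1.37, with its other probe sets up to 2.62). Pag1, the membrane anchor of CSK, was called higher under STAT4 loss (1.20, with its lowest probe set at −0.38, and 0.96 after median centring) and higher in Th2 than in Th1 wild type cells (−2.06, with probe sets up to −0.28). Cblb, a ubiquitin ligase that limits T cell activation, was called lower without STAT4 (−1.02), and not after quantile normalization (−0.72), loess (−0.84) or with the hybridization controls (−0.63). Under STAT6 loss Cblb was at 0.95, and at 0.83 with the hybridization controls. It was called higher there after median centring (1.08), quantile normalization (1.17) and loess (1.11). In all, 1 kinase or regulator was called higher and 1 lower under STAT4 loss, and 1 higher and 6 lower in Th1 against Th2 wild type cells, with medians of −0.14 and −0.01, beside 11.5% and 33.5% of all genes called. These counts turned with the scaling. Under STAT4 loss they were 0 higher and 4 lower after median centring, beside 11.9% of all genes called. They were 2 higher and 0 lower after quantile normalization (beside 11.9%) or with the hybridization controls (beside 21.2%). Between the wild types they were 4 higher and 3 lower after quantile normalization (beside 25.6%) or loess (beside 26.3%).

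Among the kinases related to the members' partners, Fyn, the SRC family kinase closest to LCK in T cells, read 12.22 in wild type Th1, 12.22 in STAT4KO Th1, 11.31 in wild type Th2 and 12.30 in STAT6KO Th2 cells. Its Th2 wild type array was the low one. The differences were 0.99 under STAT6 loss and 0.91 between the wild types, both just short of the limit as deposited. The second Fyn probe set gave 1.45 and 0.55. Values of Fyn under the other scalings are not given here. Txk, a kinase of the same family as Tec, was called higher in Th1 than in Th2 wild type cells at 2.02.

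Of 22 adaptors and effectors that work with LAT and SLP-76, 9 were called lower without STAT6 and none was called higher, and their median was −0.87, against −0.30 over all genes at the level minimum and beside the 19.5% of genes called lower and 7.01% called higher. The largest differences were in Sit1 (−1.93) and Trat1 (−1.52), transmembrane adaptors of the receptor complex, and in Was (−1.74), which drives actin assembly. Grap2, whose product GADS links LAT to SLP-76, read 8.64 in wild type Th1, 7.45 in STAT4KO Th1, 8.63 in wild type Th2 and 7.23 in STAT6KO Th2 cells. It was low on both knockout arrays, on both of its probe sets, by 1.01 to 1.41 log2 units. After quantile normalization 5 of the genes were called lower and 3 higher without STAT6, and the counts were the same after loess. The 3′ excess of the actin control was largest on the same STAT6-deficient array, and of the myeloid and dendritic markers 3 of 5 at the level minimum were called lower there and none higher, with a median of −1.59; the part of either in these counts was not tested.

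Under STAT4 loss 2 of 23 adaptors and effectors were called, both lower: Themis (−1.19, with probe sets from −1.57 to 0.69), a regulator of receptor signalling, and Grap2 (−1.18). Beside this, 11.5% of all genes were called. With the hybridization controls neither gene was called (−0.81 and −0.80) and 1 other was called higher, beside 21.2% of all genes. Between the wild types 3 of the 23 were called higher in Th1 and 2 in Th2 cells, beside 33.5% of all genes called. With the hybridization controls these counts were 1 and 6, beside 44.5% of all genes called. After quantile normalization or loess they were 4 and 1, beside 25.6% and 26.3%. Lax1, a LAT-related adaptor, was higher in Th1 cells by 2.63, from 4.14 in Th2 cells to 6.78, Grap by 1.29 and Orai1, the calcium channel subunit, by 1.04. Sos1, which activates Ras on the LAT complex, was higher in Th2 cells (−2.57 on the main probe set, with another at 0.42).

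**Figure D4:**
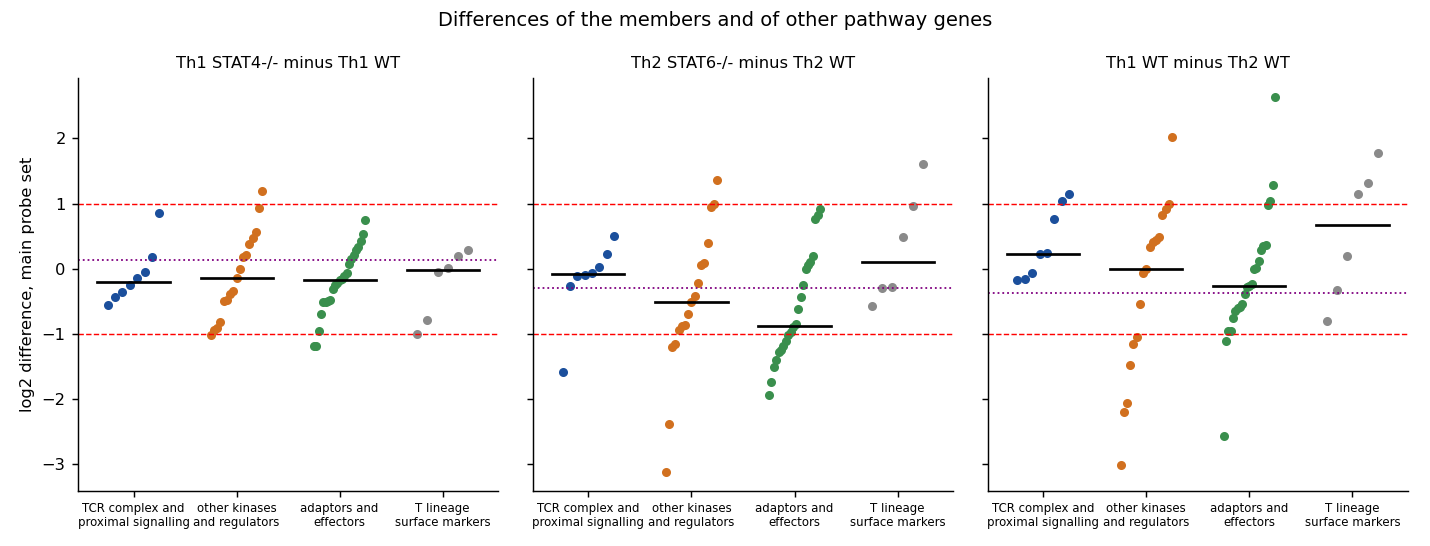
Each panel shows 1 comparison, with the log2 difference of main probe sets on the y axis. The x axis holds the 8 genes, the other kinases and regulators, the adaptors and effectors, and the T lineage surface markers. Points are genes at the level minimum and black bars are list medians. The dotted line is the median of all genes at the level minimum, and dashed lines are the 2-fold limits. Under STAT6 loss 7 of the 8 lie between −0.26 and 0.50 and Cd247 at −1.58, while the adaptors and effectors centre on −0.87.

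Most counterparts that do the same work in other immune receptors lay near or below the level minimum. Syk, the ZAP-70 relative of B and myeloid cells, read 5.66 in wild type Th1, 6.24 in STAT4KO Th1, 6.12 in wild type Th2 and 5.35 in STAT6KO Th2 cells. Fcer1g, which can stand in for the zeta chain, read 6.59, 6.38, 5.85 and 5.77, with no rise on the array where Cd247 was low. Tyrobp was below the level minimum on all 4 arrays. Lat2, the LAT relative of B and myeloid cells, was called lower without STAT6 (−2.65, with its highest probe set at 0.08) and was highest in Th2 wild type cells at 7.77.

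Of the genes of the other coreceptor, CD8, Cd8a read 5.80 to 6.16 on its main probe set, close to the level minimum. Cd8b1 read 7.41 in wild type Th1, 6.73 in STAT4KO Th1, 8.54 in wild type Th2 and 6.47 in STAT6KO Th2 cells. It was thus lowest on the same array as Cd247, by 2.07 log2 units from Th2 wild type. The cultures were started from sorted CD4+ cells, a gate that would remove CD8 cells, and whether such cells had a part in the Cd247 difference was not tested.

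Of the 6 T lineage surface markers at the level minimum, 3 were called between the wild types, all higher in Th1 cells, 1 was called higher under STAT6 loss and 1 lower under STAT4 loss, beside 8.14%, 7.01% and 5.34% of all genes called in those directions. With the hybridization controls 1 was higher and 1 lower in Th1 cells, beside 44.5% of all genes called, and Cd5 (0.93) and Cd27 (0.78) were not called. Cd6 and Cd5, scavenger receptor family members that tune receptor signalling, read 11.53, 11.48, 9.75 and 11.36 (Cd6) and 13.04, 13.04, 11.72 and 12.69 (Cd5) in the order used above. Th2 wild type cells were the low array for both. Cd6 was called under STAT6 loss (1.61) and between the wild types (1.77). Cd5 (1.31) and Cd27, a costimulatory receptor (1.15), were called between the wild types. Under STAT6 loss Cd5 was at 0.96, just short of the limit. It was called higher there after median centring (1.10), quantile normalization (1.11) and loess (1.02), and not with the hybridization controls (0.85). Cd28, the costimulatory receptor engaged in these cultures together with CD3, was called lower under STAT4 loss, at 10.32 against 11.33, which is −1.01. That call was lost after quantile normalization (−0.76), loess (−0.87) and with the hybridization controls (−0.62).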

How the data were processed

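Total RNA from 4 samples was hybridised to 4 arrays, 1 per group, and groups were taken from the sample titles. The deposited log2 values were made by the authors with RMA, per the submitters' processing notes; its version, and whether arrays were normalized together, is not given in the sources used here. Of 45101 probe sets, 64 controls were set aside, and 34945 of the rest had 1 gene, 932 several and 9160 none. Symbols were updated through the RefSeq table of GRCm38.p6 (34741 matched). Each gene was represented by its probe set with the highest mean. Differences were called at 2-fold with the level minimum, with no test. Other scalings came from limma 3.58.1 in R 4.3.3; the calling code was tested on simulated data. The number of arrays limits the precision.

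The members and gene lists were chosen with earlier results of these data known. By rule, all 8 measured members were named, up to 3 called genes with the largest difference per other list and comparison, and the 3 genes most like each member that ranged over at least 1 log2 unit. Csk, Fyn, Txk, Orai1, Syk, Fcer1g, Tyrobp, Cd8a, Cd2, Thy1 and Ptcra were partly or wholly named outside it, after their values were seen; B cell and myeloid markers are given as counts and sums only.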

Additional observations from a re-analysis of the deposited data

How the results depend on the processing

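The alternatives were centring on the array median, quantile normalization, cyclic loess, centring on 18 hybridization control probe sets, a level minimum at the 75th percentile or none, the mean of a gene's probe sets, and a 1.5-fold limit. Under STAT4 loss the count of called members went from 0 to 1, Cd4 each time, after quantile normalization, with hybridization controls and at 1.5-fold. Under STAT6 loss it was 1, Cd247, under all 8. Between the wild types it was 2 except at 0 with hybridization controls and at 3 at 1.5-fold, where Lcp2 was added. Of 120 recomputed member differences, 119 moved by less than the SD of differences between probe sets of 1 gene. That SD was 0.48 for STAT4 loss, 0.65 for STAT6 loss and 0.71 for the wild types. The other was Cd4 between the wild types, 1.77 with probe sets averaged. The 120 are not independent checks. Averaging cannot move the 4 members with 1 probe set, and centring shifts all members of a comparison by the same amount. Each such shift, by array medians or hybridization controls, was below the SD of its comparison. The differences recomputed by centring, and those of the 4 members by averaging, were thus bound to count among the 119. No called value changed sign, which could only concern Cd247 under STAT6 loss and Cd3e and Cd4 between the wild types. The hybridization controls moved the median of all genes to 0.55 for STAT4 loss and −0.47 for the wild types. Among all genes the share of calls that were higher was 53.7% under STAT4 loss, and from 24.8% (median centring) to 87.5% (hybridization controls) otherwise; 26.5% under STAT6 loss, and 20.1% to 43.4%; 24.3% between the wild types, and 8.89% to 44.9%. The members' separation of Th1 from Th2 arrays was also recomputed under the 4 other scalings, as were the calls of other named pathway genes. These checks were chosen after seeing the data. No paired analysis was possible because each group has 1 array and the labels give no replicate numbers.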
